A study of Sus scrofa with 16 samples.

Results

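The genes described here carry fatty acids into the heart muscle cell and burn them in its mitochondria. A total of 41 such genes were listed by name, and a gene counted as measured where the array annotation gave it as the only symbol of a probe set (a group of probes for 1 transcript). This held for 35 of the 41, out of 6765 genes with such a probe set on the array. The other 6, CD36, SLC27A4, EHHADH, ACAT1, MLYCD and ACACB, were not analysed here. A gene with several probe sets was represented by the one with the highest mean over all arrays, and the rule used no difference between groups.

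RNA came from the left ventricle of 16 Yorkshire x Landrace pigs aged 2 to 3 months. In the MI group, 8 animals had a myocardial infarction, and in the Sham group 8 animals had the surgery without one. Tissue was taken 3 weeks later. Each group held 4 animals labelled female and 4 labelled male, the males being neutered. The labels do not give the distance of the tissue from the infarct. Each animal gave 1 Affymetrix array, and values are log2 signals as deposited, so that a difference of 1 is a doubling. Below, MI 3 means animal 3 of the MI group.

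The adult heart takes most of its energy from long-chain fatty acids. Lipoprotein lipase frees them from blood fats, transport proteins and a fatty acid binding protein move them inwards, and acyl-CoA synthetases activate them. The carnitine shuttle brings them through the mitochondrial membranes, beta oxidation cuts them into acetyl-CoA, and electron transfer flavoprotein hands part of the electrons to the respiratory chain. The nuclear receptor PPARA and the coactivator PPARGC1A drive many of these genes, and a fall of the programme is a well-known feature of failing hearts.

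Of the 10 measured cardiomyocyte markers all 10 lay above the highest signal of control probe sets without target RNA (4.99, here called background), and the list's mean lay between 13.68 and 13.83 in MI and 13.71 and 13.88 in Sham animals. Spike-in controls added during labelling separated the arrays into set A (11 arrays) and set B (5 arrays: MI 7, MI 8, Sham 6, Sham 7 and Sham 8), a split that the labels do not mention. By label set B held 2 MI females, 0 MI males, 1 Sham female and 2 Sham males. MI 7, labelled female, had a signal of 9.51 for the chromosome Y gene EIF1AY, within the range of the males, while the other females lay between 3.00 and 3.51. Calls of members that changed with the set or without MI 7 are therefore given with those values. The correlation of any 2 arrays, taken over all probe sets, lay between 0.972 and 0.992.

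The first question was whether the pathway differed between infarcted and sham-operated hearts. No member passed: 0 of the 35 had an adjusted p under 0.05 by limma, and 4 had an unadjusted p under 0.05. Over all 23999 probe sets tested, 10.5% passed and 23.6% had an unadjusted p under 0.05. The share was lower among features more like the members: 7.63% of the 6765 genes with a single symbol, and, when the test was run on them alone, 5.94% of the probe sets above background and 4.09% of the 16000 brightest. In both of these narrower tests 0 members passed. In MI 22 members were higher and 13 lower, with a median difference of 0.04 (0.00 over all probe sets). Differences were under 0.2 in size for 27 members and under 0.1 for 20 of these. For 29 of the 35 the 95% confidence interval stayed within 0.5 of no difference in both directions, that is within 1.41-fold. The 6 wider intervals leave room for larger differences. The groups overlapped for all 35 members, while 2.96% of all probe sets did not overlap. In whole tissue a lower signal from fewer heart muscle cells cannot be told apart from less RNA per cell.

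**Figure D1:**
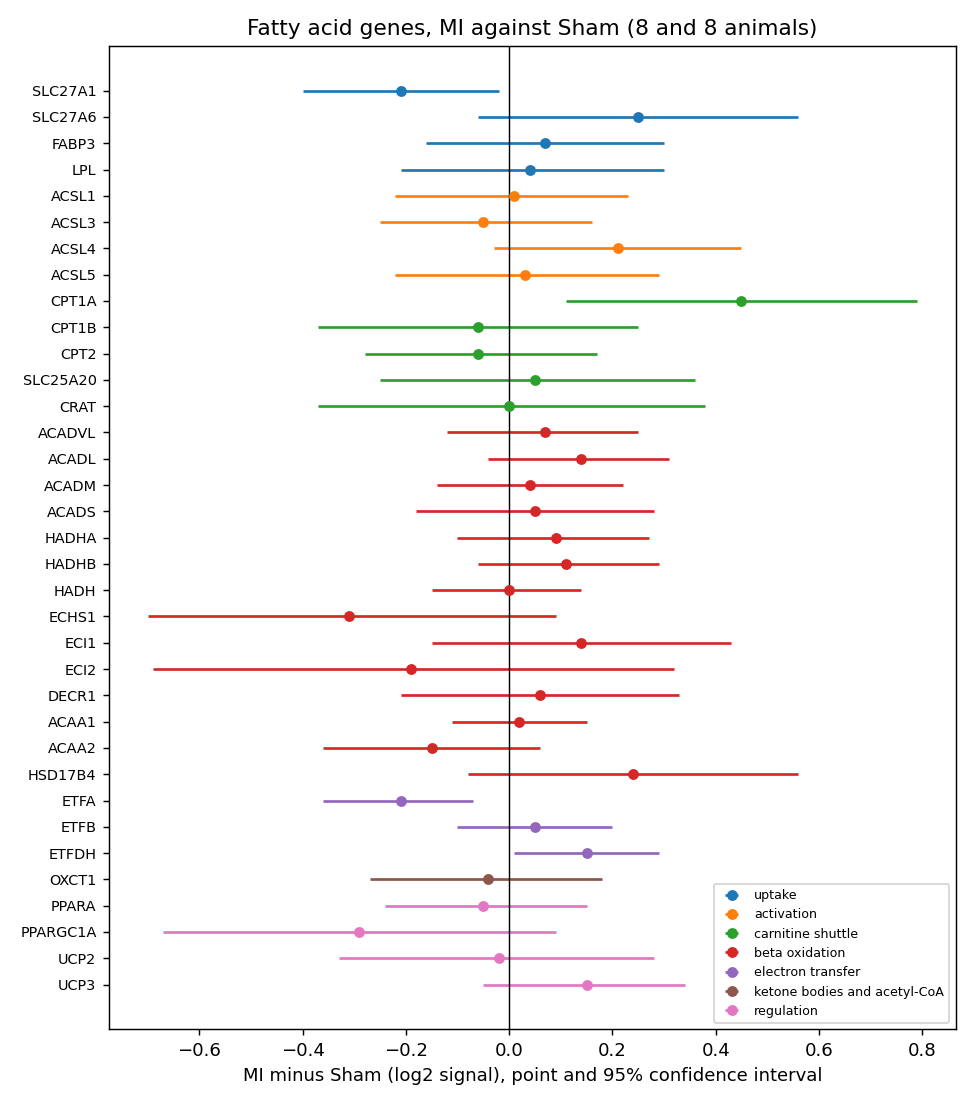
Difference between MI and Sham (log2 signal, horizontal axis) for the 35 measured genes, with 95% confidence intervals from limma and colours by step of the pathway. The intervals of SLC27A1, CPT1A, ETFA and ETFDH exclude 0 before adjustment, and the others include it.

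By step, the median difference was 0.06 for the 4 uptake genes, 0.02 for the 4 activation genes and 0.00 for the 5 genes of the carnitine shuttle. It was 0.06 for the 14 genes of beta oxidation, 0.05 for the 3 genes of electron transfer and -0.04 for the 4 regulators. Beta oxidation had 10 genes higher and 4 lower in MI. The median spread within a group (residual SD) was 0.22 for the members and 0.19 over all probe sets. By step it ran from 0.12 in electron transfer to 0.31 in the carnitine shuttle, so equal differences were easier to detect in the former.

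Among uptake genes, SLC27A1, a fatty acid transport protein of the cell membrane (Entrez 100037269, chromosome 2 from 60203374 to 60235689 in Sscrofa11.1), had MI values of 6.79 at the lowest, 6.99 at the median and 7.26 at the highest. Its Sham values were 6.83, 7.26 and 7.39. Of the 8 MI animals 6 lay below the Sham mean, and the single low Sham value came from Sham 7. With means of 7.01 ± 0.17 and 7.22 ± 0.17 (SD, 8 animals each), it differed by -0.21 (SE 0.09, adjusted p = 0.163 by limma). Without Sham 7 the difference was -0.27 and passed (adjusted p = 0.0432 by limma).

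SLC27A6, another transport protein of the same family and abundant in heart, ran from 5.08 through a median of 5.68 to 5.94 in MI and from 4.91 through 5.30 to 5.79 in Sham animals. The groups overlapped widely and the difference was 0.25 (SE 0.15, adjusted p = 0.34 by limma). Of its 2 dimmer probe sets, 1 lay below background and was higher in MI by 0.23 (adjusted p = 0.0136), and the other differed by -0.03. FABP3, the heart fatty acid binding protein, was 13.21 ± 0.18 in MI and 13.14 ± 0.26 in Sham animals. LPL, lipoprotein lipase, was 11.92 ± 0.30 and 11.88 ± 0.25, and its interval ran from -0.21 to 0.30. Its 2 highest values were those of MI 7 (12.43) and MI 8 (12.28), both of set B.

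The activation genes encode acyl-CoA synthetases, which couple fatty acids to coenzyme A. ACSL1, the main form in heart, had a mean of 11.49 in both groups, and the interval of its difference ran from -0.22 to 0.23. ACSL4, which prefers arachidonic acid, ran from 8.40 through 8.93 to 9.05 in MI and from 8.32 through 8.67 to 8.95 in Sham animals. Here 7 of 8 MI animals lay above the Sham mean, with a difference of 0.21 (SE 0.11, adjusted p = 0.294 by limma). ACSL3, a form found on lipid droplets, ran from 6.60 through 6.75 to 7.30 in MI and from 6.5 through 6.89 to 6.99 in Sham animals and differed by -0.05. The high MI value was that of MI 1 alone, the other MI animals being at 6.85 or below. ACSL5 differed by 0.03 and its 2 dimmer probe sets by -0.06 and 0.20.

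The carnitine shuttle held the largest difference. CPT1A (Entrez 399527, chromosome 2 from 4250642 to 4293914) is the carnitine palmitoyltransferase of the outer mitochondrial membrane best known from liver, and CPT1B is the muscle form. CPT1A ran from 8.18 through 8.99 to 9.26 in MI and from 7.60 through 8.51 to 8.73 in Sham animals. All but 2 MI animals lay above the highest Sham animal, and those 2, MI 7 and MI 8, were the MI animals of set B. The means were 8.86 ± 0.38 and 8.42 ± 0.36 (SD, n = 8 each), which gave a difference of 0.45 (SE 0.16, 1.36-fold, adjusted p = 0.0889 by limma). Without MI 7 it was 0.54 and passed (adjusted p = 0.0356 by limma).

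CPT1B, in contrast, was 10.68 ± 0.29 in MI and 10.74 ± 0.31 in Sham animals, with values from 10.35 to 11.11 and from 10.37 to 11.23. The difference was -0.06 (interval -0.37 to 0.25). CPT2, the transferase of the inner membrane, ran from 5.41 through 6.03 to 6.28 in MI and from 5.82 through 6.08 to 6.25 in Sham animals and differed by -0.06. SLC25A20, which carries acylcarnitines across that membrane, differed by 0.05. CRAT, carnitine acetyltransferase, which buffers acetyl-CoA, differed by 0.00 (interval -0.37 to 0.38). CRAT values ran from 9.57 to 10.81 within MI animals, and the 2 highest were again MI 7 and MI 8.

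**Figure D2:**
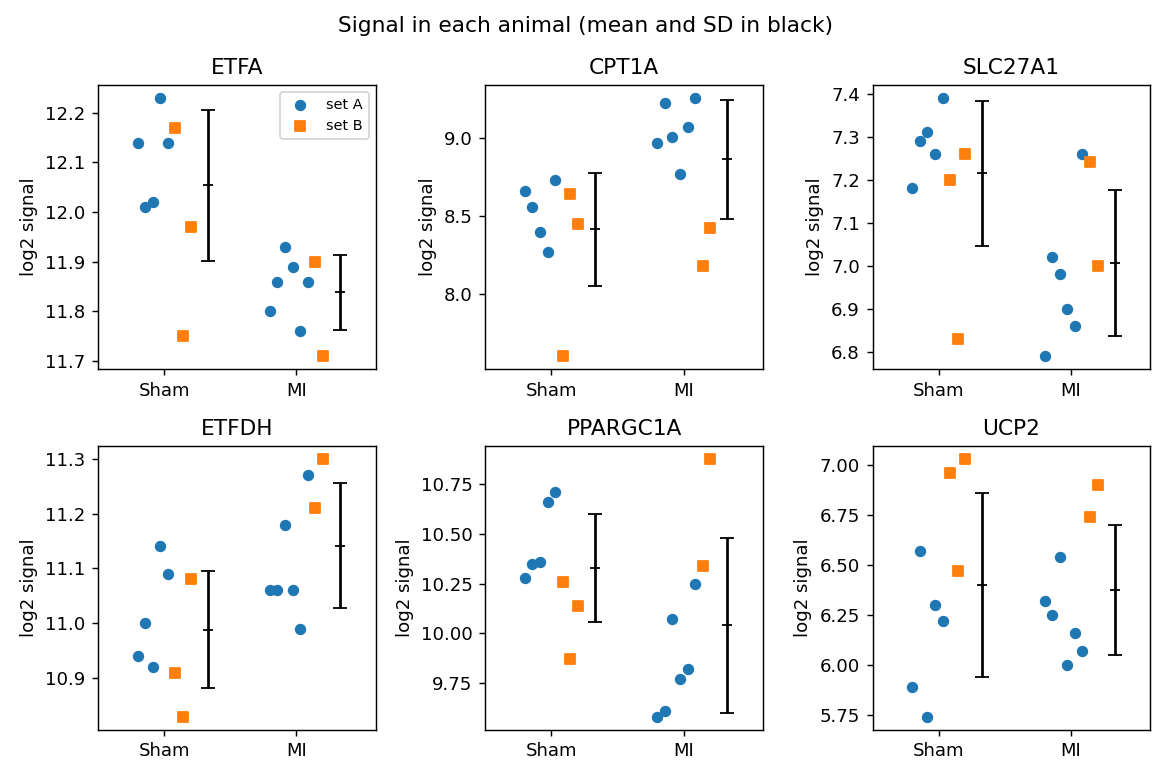
Log2 signal in each of the 8 Sham and 8 MI animals for 6 genes, with blue circles for arrays of set A, orange squares for set B, and the mean with its SD in black at the right of each group. For CPT1A the 6 MI circles lie above all Sham points, and for PPARGC1A the circles and the squares are ordered the opposite way.

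The first reaction of each round of beta oxidation is run by acyl-CoA dehydrogenases that differ in the chain length they accept. From long to short chains, ACADVL differed by 0.07, ACADL by 0.14, ACADM by 0.04 and ACADS by 0.05. ACADL was the tightest of them in MI, at 11.80 to 11.97, against 11.28 to 11.93 in Sham animals. All 8 MI animals lay above its Sham mean of 11.72, in which Sham 7 (11.28) was the lowest animal, and the adjusted p was 0.338 by limma.

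The trifunctional protein, which runs the last reactions on long chains, is made of HADHA and HADHB. These genes are neighbours on chromosome 3, from 112753343 to 112797627 and from 112712894 to 112753121. HADHA was 11.47 ± 0.17 in MI and 11.39 ± 0.20 in Sham animals, and HADHB was 12.87 ± 0.09 and 12.75 ± 0.20. The differences of 0.09 and 0.11 had intervals of -0.10 to 0.27 and -0.06 to 0.29. The 2 other probe sets of HADHB differed by 0.10 and 0.19, the same way. HADH, the dehydrogenase for shorter chains, lay at 12.27 to 12.68 in MI and 12.21 to 12.58 in Sham animals and differed by 0.00 (interval -0.15 to 0.14).

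ECHS1, the short-chain enoyl-CoA hydratase (chromosome 14 from 141340320 to 141348870), had the lowest difference of the step. It ran from 10.93 through 11.89 to 12.30 in MI and from 11.42 through 12.01 to 12.72 in Sham animals, with MI 4 and MI 5 below every Sham animal. The difference was -0.31 (SE 0.19, interval -0.70 to 0.09, adjusted p = 0.359 by limma). HSD17B4, the bifunctional enzyme of peroxisomal beta oxidation, had the highest difference, 0.24 (SE 0.15, adjusted p = 0.369 by limma). Its MI values ran from 9.08 through 9.34 to 9.56 and its Sham values from 8.07 through 9.16 to 9.58, and the low Sham end was Sham 8 alone, since every other Sham animal was at 8.96 or above.

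The isomerases ECI1 and ECI2 and the reductase DECR1 prepare unsaturated fatty acids for the cycle. ECI1 differed by 0.14 and DECR1 by 0.06. ECI2 was 9.81 ± 0.47 in MI and 10.00 ± 0.57 in Sham animals and had the largest SE of all members, 0.24, with Sham 4 at 8.83. The thiolases, which release acetyl-CoA, differed by 0.02 for ACAA1, the peroxisomal form, and by -0.15 for ACAA2, the mitochondrial form. OXCT1, which lets muscle use ketone bodies, was 11.29 ± 0.14 in MI and 11.33 ± 0.28 in Sham animals.

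The 3 electron transfer genes were split. ETFA and ETFB encode the subunits of electron transfer flavoprotein, and ETFDH encodes the dehydrogenase that passes its electrons to ubiquinone. ETFA (Entrez 396615, chromosome 7 from 56450508 to 56540275) ran from 11.71 through 11.86 to 11.93 in MI and from 11.75 through 12.08 to 12.23 in Sham animals. All 8 MI animals lay below the Sham mean, and of the Sham animals Sham 7 alone fell within the MI range. With means of 11.84 ± 0.08 and 12.05 ± 0.15 (SD, 8 animals each), it differed by -0.21 (SE 0.07, adjusted p = 0.0582 by limma). This was the smallest adjusted p of the 35 members. It passed without Sham 7 (-0.26, adjusted p = 0.0142 by limma) and not without any other single animal.

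ETFB differed by 0.05 (SE 0.07, interval -0.10 to 0.20). ETFDH (chromosome 8 from 47608499 to 47655889) ran from 10.99 through 11.12 to 11.30 in MI and from 10.83 through 10.97 to 11.14 in Sham animals, and 4 MI animals lay above every Sham animal. Its difference of 0.15 (SE 0.07, adjusted p = 0.165 by limma) had the opposite sign to that of ETFA. Its second probe set differed by 0.07 (adjusted p = 0.765).

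Among regulators, PPARGC1A (Entrez 397013, chromosome 8 from 17841844 to 18527953), the coactivator of mitochondrial genes, ran from 9.58 through 9.94 to 10.88 in MI and from 9.87 through 10.31 to 10.71 in Sham animals. A total of 4 MI animals lay below every Sham animal while MI 8 lay above them all. The difference was -0.29 (SE 0.18, adjusted p = 0.36 by limma). PPARA, the nuclear receptor that fatty acids activate, differed by -0.05 and lay below background in both groups (4.40 ± 0.14 and 4.45 ± 0.20), so that its level was at the limit of the array. Its other probe set, dimmer still, was lower in MI by 0.27 (3.66 ± 0.16 against 3.93 ± 0.12, adjusted p = 0.0388 by limma). All other 34 members lay above background.

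The mitochondrial carriers UCP2 and UCP3, which fatty acids are known to induce, are neighbours on chromosome 9, from 8358559 to 8364552 and from 8378023 to 8389452. UCP3, the muscle form, ran from 5.97 through 6.18 to 6.54 in MI and from 5.85 through 6.08 to 6.41 in Sham animals. The MI animals above the mean of Sham numbered 6 of 8. It was 6.23 ± 0.21 in MI and 6.09 ± 0.17 in Sham animals, a difference of 0.15 (SE 0.09, adjusted p = 0.36 by limma). UCP2 was 6.37 ± 0.33 and 6.39 ± 0.46, a difference of -0.02 (interval -0.33 to 0.28).

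Members differed between the array sets about as often as all probe sets did. With group and sex in the fit, 8 of the 35 passed between set B and set A by limma, against 22.1% of all probe sets (11.8% higher and 10.3% lower in set B). Of the 6765 genes with a single symbol, 1041 passed as higher and 876 as lower in set B. Higher in set B were CRAT by 0.71 (SE 0.11, adjusted p = 0.000352), UCP2 by 0.67 and ECI2 by 0.64. Lower in set B were SLC25A20 by 0.55 (SE 0.09, adjusted p = 0.00038), CPT1A by 0.51, DECR1 by 0.46, FABP3 by 0.37 and ACADM by 0.26. All 5 set B animals lay above every set A animal for CRAT (10.22 to 10.81 against 9.57 to 10.15). All 5 lay below every set A animal for SLC25A20 (8.70 to 9.17 against 9.30 to 9.77) and FABP3 (12.68 to 13.04 against 13.13 to 13.43). CRAT, SLC25A20 and FABP3 were 3 of the 35 members, while 6.35% of all probe sets did not overlap between the sets. The remaining ones overlapped between the sets. UCP2 ran from 6.47 to 7.03 in set B and from 5.74 to 6.57 in set A, and ECI2 from 9.89 to 10.67 and from 8.83 to 10.48. DECR1 ran from 10.26 to 10.69 in set B and from 10.68 to 11.11 in set A, and ACADM from 12.31 to 12.53 and from 12.46 to 12.80. Without MI 7 the count was again 8.

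**Figure D3:**
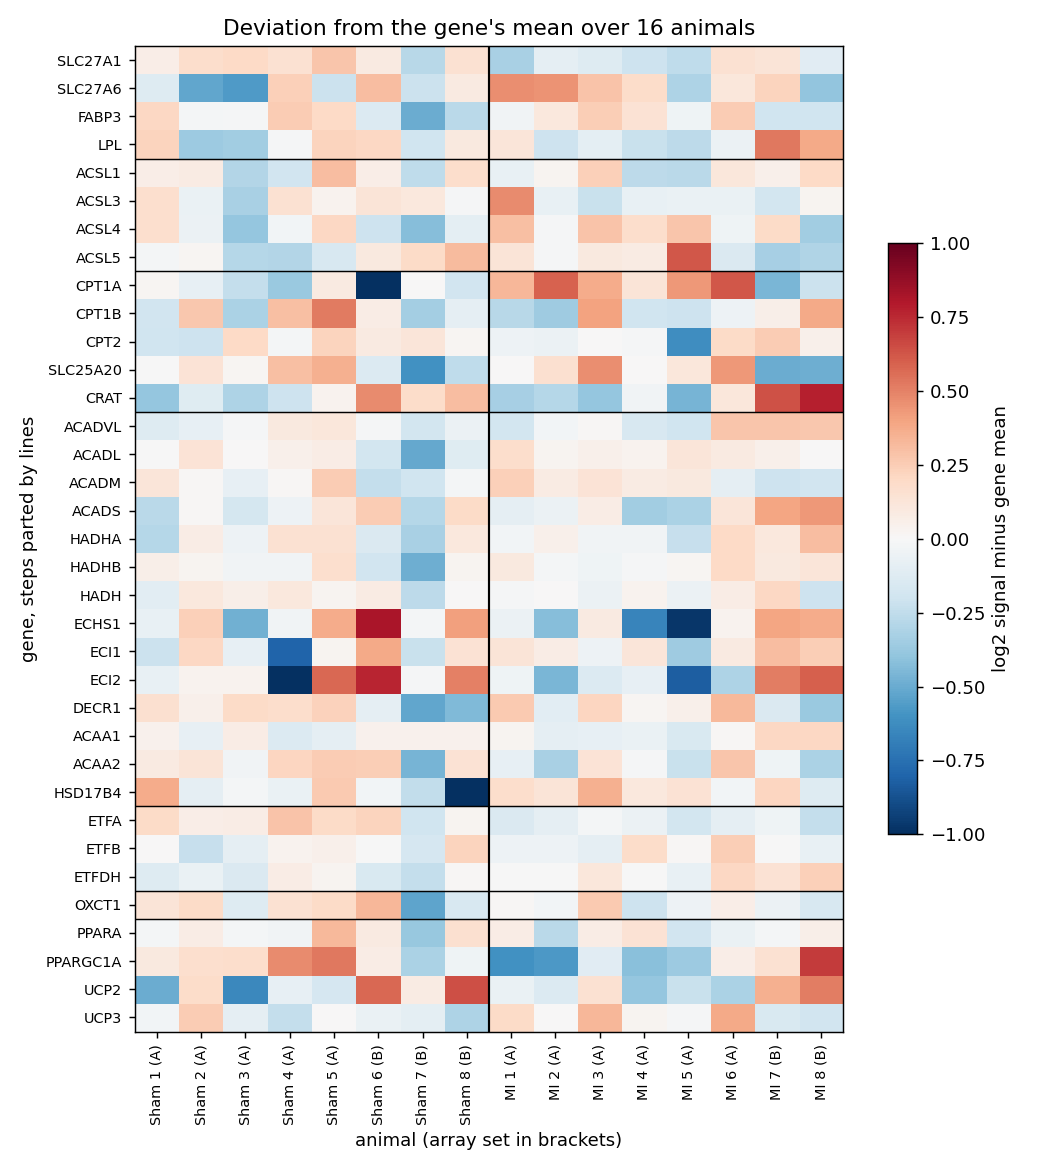
Log2 signal minus the gene's mean over the 16 animals (colour scale cut at 1 in both directions) for 35 genes in rows and 16 animals in columns, Sham at left and MI at right, with the array set in brackets. CRAT is red and SLC25A20 blue in all set B columns, and Sham 7 is the bluest column, being the lowest of all 16 animals in 12 genes.

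With the set as a block, ETFA was the only 1 of the 35 members that passed, lower in MI by 0.23 (SE 0.06, adjusted p = 0.0299 by limma), where 12.9% of all probe sets passed. With the block and without MI 7, 2 passed, ETFA (-0.26, adjusted p = 0.0203) and CPT1A (0.47, adjusted p = 0.0441), against 11.5% of all probe sets. Within set A alone, with 6 MI and 5 Sham animals, 4 of 35 passed by limma, 3 of them lower in MI, while 9.68% of all probe sets passed and 5.1% passed as lower in MI. Differences here are the mean of the female and the male difference, which is not the difference of the group means where the sexes are unequal in number, as in set A. CPT1A rose there from 8.53 ± 0.19 to 9.05 ± 0.18 (difference 0.56, adjusted p = 0.015). PPARGC1A fell from 10.47 ± 0.20 to 9.85 ± 0.26 (-0.69, adjusted p = 0.00795), ETFA from 12.10 ± 0.09 to 11.85 ± 0.06 (-0.26, adjusted p = 0.0408) and SLC27A1 from 7.29 ± 0.08 to 6.97 ± 0.16 (-0.33, adjusted p = 0.0462).

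For 3 of the 35 members, CPT1A, ETFA and PPARGC1A, the groups did not overlap in set A, about the share of all probe sets (8.62%). Their MI values in set A ran from 8.77 to 9.26, from 11.76 to 11.93 and from 9.58 to 10.25. The Sham values there ran from 8.27 to 8.73, from 12.01 to 12.23 and from 10.28 to 10.71. When each of the 11 animals of set A was left out in turn, PPARGC1A passed in all 11 fits (adjusted p up to 0.0373 by limma). CPT1A passed in 9 and failed without MI 2 or Sham 4 (up to 0.0676). ETFA passed in 2, those without Sham 2 or Sham 3 (up to 0.146), and SLC27A1 in 1, that without MI 6 (up to 0.168). The number of members passing there ranged from 1 to 4. These 4 genes were followed because they had passed in set A, and the share of all probe sets passing in these fits is not given here.

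In set B, with 2 MI and 3 Sham animals and a fit without sex, limma passed 0 of 35 members, and 5 had an unadjusted p under 0.05, while over all probe sets 0.00417% passed and 11% had such a p. PPARGC1A lay the other way there. MI 7 and MI 8 had 10.34 and 10.88, and the 3 Sham animals had 9.87, 10.14 and 10.26, a difference of 0.52 (SE 0.21, adjusted p = 0.436 by limma). The groups did not overlap in set B for 10 of 35 members, while 29% of all probe sets did not. CPT1A differed by 0.07 in set B, ETFA by -0.16 and SLC27A1 by 0.02.

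Whether the difference between MI and Sham itself changed with the set was tested by an interaction term in 1 fit over all 16 animals with sex as a further term, so that it need not equal the gap between the values fitted within each set. The term passed by limma in 0 of 35 members, with 12 at an unadjusted p under 0.05, and in 0.00833% of all probe sets, with 10.8% at such a p. PPARGC1A had the largest term, 1.37 (SE 0.25, adjusted p = 0.105). CPT1B, ACSL5 and CPT1A followed with 0.85, -0.75 and -0.67 (adjusted p = 0.319, 0.285 and 0.435). For CPT1B the differences were -0.31 in set A and 0.34 in set B, and for ACSL5 0.26 and -0.52. Beta oxidation had 5 genes higher and 9 lower in MI in set A, with a median of -0.03, against 10 and 4 over all animals. Set B holds 5 animals and no MI animal labelled male, so that the set, the sex and the single animals cannot be told apart there.

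**Figure D4:**
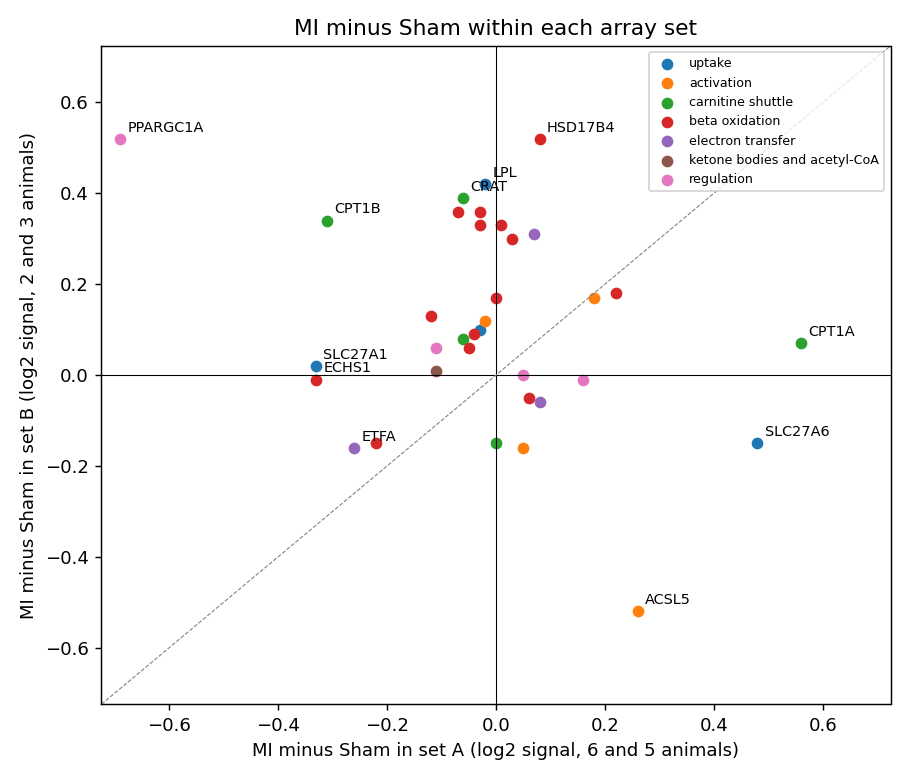
MI minus Sham (log2 signal) within set A (horizontal axis, 6 and 5 animals) and within set B (vertical axis, 2 and 3 animals) for the 35 genes, coloured by step, with a dashed line of equality. PPARGC1A lies at -0.69 and 0.52, CPT1A at 0.56 and 0.07 and ETFA at -0.26 and -0.16.

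The animals differed among themselves across the pathway. Sham 7 was the lowest Sham animal in 18 of the 35 members and the lowest of all 16 animals in 12, with a median deviation from the gene means of -0.24. Its median deviation was -0.26 in beta oxidation and -0.20 in electron transfer. The 7 endothelial markers averaged 9.04 in Sham 7, where the other 15 animals lay between 7.98 and 8.65. Its 4 smooth muscle markers averaged 11.09, the highest of the 16 but close to MI 5 at 11.07. The cardiomyocyte markers of Sham 7 averaged 13.73, within the range of the others. The part of other cell types in the low values of Sham 7 was not tested. Sham 5 was the highest Sham animal in 16 members (median deviation 0.19). Among MI animals, MI 5 was the lowest in 11 members (median deviation -0.19) and MI 6 the highest in 8 (0.09).

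Within the labelled sexes limma passed 0 of 35 members in females, with 3 at an unadjusted p under 0.05, where 2.85% of all probe sets passed and 16.2% had such a p. In males it passed 0 of 35, with 6 at such a p, where the shares were 3.4% and 19%. In females 24 members were higher and 11 lower in MI (median 0.07), and in males 14 were higher and 21 lower (median -0.07). CPT1A differed by 0.09 in females and by 0.80 in males (SE 0.23 each, adjusted p = 0.897 and 0.063). It passed in males when MI 2 or MI 7 was left out (adjusted p = 0.0456 and 0.0439 by limma), animals labelled female whose omission left the male difference at 0.80. ECHS1 differed by 0.12 in females and by -0.73 in males (adjusted p = 0.882 and 0.144). By label all MI males were in set A, while 2 of the 4 Sham males were in set B, so sex and set are mixed in these values. MI 7, counted as female in these values, had an EIF1AY signal of 9.51, within the range of the males. It also had the lowest CPT1A of the MI animals (8.18).

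The difference between the sexes did not pass for any member: limma passed 0 of 35, with 4 at an unadjusted p under 0.05, where 0% of all probe sets passed and 5.68% had such a p. UCP2 had the largest interaction, 0.99 (SE 0.29, adjusted p = 0.794), with MI minus Sham of 0.48 in females and -0.52 in males. Its female values ran from 6.25 to 6.90 in MI and from 5.74 to 6.47 in Sham animals, and its male values from 6.0 to 6.54 and from 6.30 to 7.03. With the set as a block its interaction was 0.59 (SE 0.19, adjusted p = 1), and UCP2 was the only 1 of 35 members with an unadjusted p under 0.05 there, against 3.33% of all probe sets. For ECHS1, CPT1A and ACADS it was 0.86, -0.71 and 0.54, each with an adjusted p of 0.794, and with the block it was 0.54, -0.40 and 0.38. Between females and males over both groups, 0 of 35 passed and 1 had an unadjusted p under 0.05, against 0.0583% and 3.11% of all probe sets. The single member was ACAA2, lower in females by 0.23 (SE 0.10, adjusted p = 0.998 by limma).

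**Figure D5:**
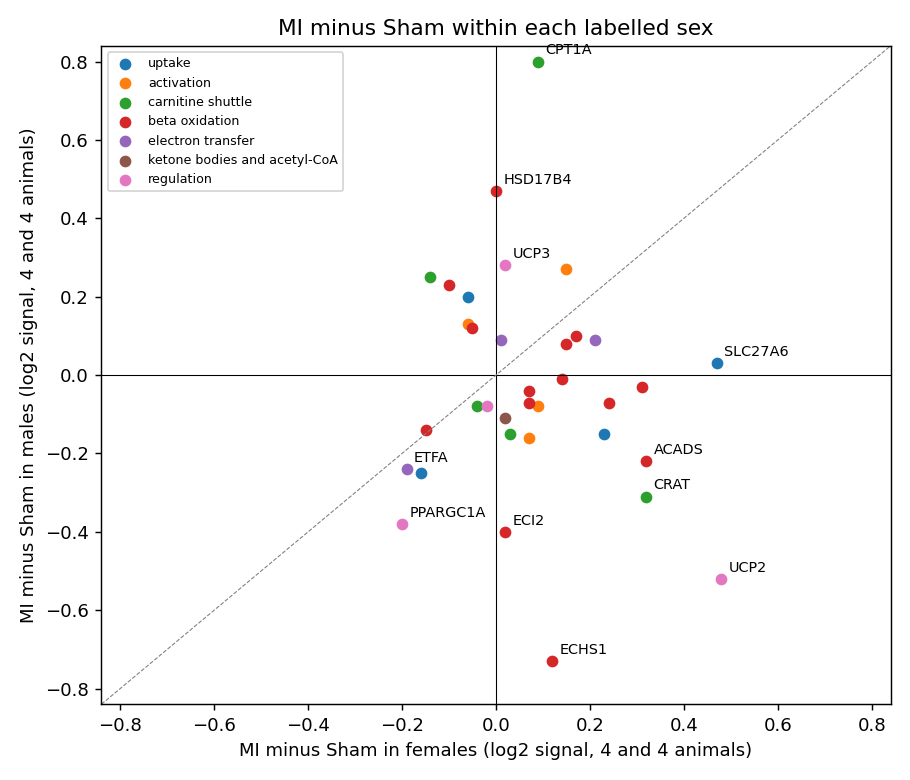
MI minus Sham (log2 signal) in animals labelled female (horizontal axis) and male (vertical axis), 4 animals per group and sex, for the 35 genes coloured by step, with a dashed line of equality. UCP2 lies at 0.48 and -0.52, ECHS1 at 0.12 and -0.73 and CPT1A at 0.09 and 0.80.

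Other genes of lipid metabolism were taken from a list of 94, of which 62 were measured. By limma 3 of the 62 passed between MI and Sham, 2 higher and 1 lower in MI, beside 7.63% of all genes with a single symbol. PPARG, the nuclear receptor of fat storage, rose from 5.50 ± 0.32 to 6.21 ± 0.31 (SD, n = 8 each), by 0.71 (SE 0.15, adjusted p = 0.0076 by limma), and all 8 MI animals lay above the Sham mean. IVD, isovaleryl-CoA dehydrogenase of leucine breakdown, an enzyme that also feeds electron transfer flavoprotein, fell from 9.90 ± 0.40 to 9.34 ± 0.38. The fall was 0.56 (SE 0.14, adjusted p = 0.0197 by limma), with 7 of 8 MI animals below the Sham mean. FABP1, the liver fatty acid binding protein, rose by 0.21 (adjusted p = 0.0453) but lay below background at 3.84 ± 0.12 against 3.63 ± 0.12.

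The next genes by p were ACACA, MUT and ACAD10. ACACA, which makes the malonyl-CoA that inhibits CPT1 enzymes, differed by 0.25 (adjusted p = 0.0549 by limma) at signals below background. MUT, methylmalonyl-CoA mutase, which handles the ends of odd chains, differed by -0.34 (7.28 ± 0.27 in MI against 7.62 ± 0.10 in Sham, adjusted p = 0.0551). ACAD10 differed by 0.24 (adjusted p = 0.123) below background. In set A alone 2 of the 62 passed, both higher in MI, while 9.68% of all probe sets passed there. PPARG was 1 of them (0.85, adjusted p = 0.0258). The other was PDK4, the kinase that turns the heart from glucose towards fat (1.32, adjusted p = 0.0409), chosen after its values were seen. Over all animals PDK4 differed by 0.71 (adjusted p = 0.198) and with the set as a block by 0.78 (adjusted p = 0.124), so it passed neither way. In set B PDK4 differed by -0.06 and PPARG by 0.35. With the set as a block 4 of the 62 passed, against 12.9% of all probe sets. The further gene was ACACA (0.26, adjusted p = 0.0354 by limma).

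Markers of other cells were set beside these values, since fat, vessel and blood cells also use genes of this pathway. Of 7 measured adipocyte markers ADIPOQ rose by 0.44 (adjusted p = 0.0336, below background) and RETN fell by 0.27 (adjusted p = 0.0414), and the list's mean lay between 6.73 and 7.16 in MI and 6.71 and 7.13 in Sham animals. FABP4, the abundant fat cell and endothelial binding protein, differed by 0.24 (interval -0.12 to 0.60). Of 7 endothelial markers 0 passed by limma and 1 had an unadjusted p under 0.05, and of 6 fibroblast and 4 smooth muscle markers 0 passed and 0 had such a p. Of 10 cardiomyocyte and 3 atrial markers 0 passed and 0 had such a p. Of 5 macrophage markers CD14 alone passed, with a rise of 0.76 (adjusted p = 0.00314 by limma). Of 7 T lymphocyte markers CD3D, CD247, CD8B and IL7R rose by 0.30 to 0.43 and CD4 fell by 0.24 (adjusted p = 0.0462 by limma). IL7R and CD4 lay below background. CD3E and CD8A differed the other way from CD3D and CD8B, by -0.26 and -0.10, and did not pass (adjusted p = 0.443 and 0.831 by limma). Of 4 erythroid markers HBM and AHSP rose by 1.11 and 0.83 (adjusted p = 0.00843 and 0.0376 by limma). ALAS2 differed by 0.59 and HBB by -0.06, and neither passed (adjusted p = 0.22 and 0.817 by limma). Of all genes with a single symbol 7.63% passed. The mean of the erythroid list lay between 6.41 and 7.82 in MI and 6.26 and 6.78 in Sham animals. CPT1A, PPARGC1A, ETFA and SLC27A1 passed in set A, where 9.68% of all probe sets passed. So did 1 of 7 endothelial markers, PECAM1 (0.55, adjusted p = 0.0213 by limma), and 1 of 5 macrophage markers, CD14 (0.99, adjusted p = 0.003 by limma). Of 7 T lymphocyte markers 3 passed there (2 higher, 1 lower), and of 4 erythroid markers 2 passed, both higher. The mean of the macrophage list did not overlap there, at 7.70 to 8.04 in MI and 7.47 to 7.67 in Sham animals. Over all animals it did overlap, at 7.5 to 8.04 in MI and 7.47 to 7.94 in Sham animals. The mean of the endothelial list overlapped in set A, at 8.33 to 8.65 and 7.98 to 8.47. The part of these cells in the values of the pathway was not tested.

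Of the 35 members 10 had more than 1 probe set, with 13 others in all. Of these, 10 differed in the same direction as the one used and 3 the other way, namely 1 each of SLC27A6, ACADVL and ACSL5. The 2 that passed, of PPARA and SLC27A6, both lay below background. OXCT1's second probe set differed by -0.27 (adjusted p = 0.271 by limma), against -0.04 for the one used.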

How the data were processed

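Each array measured RNA of the left ventricle of 1 pig. The values deposited by the authors were taken as log2 signals because they ran from 2.87 to 14.9. All arrays had the same median (6.24). How the signals were summarised and normalized, and with which software, is not given in the sources used here. Values were used as deposited. After 124 control probe sets were set aside, 23999 were tested: 10069 had 1 gene symbol, 198 several and 13732 none. All 35 Entrez identifiers were found in the RefSeq table of Sscrofa11.1. No sequence was used here.

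Differences were fitted in R 4.3.3 with limma 3.58.1, with 1 coefficient per group and sex (12 residual and 3.28 prior degrees of freedom). P-values were two-sided and adjusted by Benjamini-Hochberg over all probe sets, with 0.05 as threshold. The fit was also run on simulated data with independent probe sets and no array set or sex effect, so that run does not test those features. Sets A and B were split at the largest gap in poly-A minus hybridisation controls (-1.88 ± 0.32 and -4.57 ± 0.45). Background was the highest value of 23 control probe sets without target RNA. Precision is limited by the number of animals, since arrays yield no read depth.

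The members, steps and lists were chosen with earlier results of these data known. All measured members are named. Those with an unadjusted p under 0.05, passing in any comparison, or highest or lowest in a step are given in more detail, and of the wider list those passing and the 6 with the lowest p. Alternatives covered sex, animal number, normalization, dim probe sets, an offset, the variance model, the array set, MI 7, each animal and the other probe sets. Fits within set A without each animal and the group by set interaction were added after seeing the data.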

Additional observations from a re-analysis of the deposited data

Results flagged for a closer look

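In 8 of 70 groups of 8 animals (35 genes in MI and in Sham), the highest or lowest animal stood apart from the nearest other by a larger share of the group's range than Dixon's critical value. Independent draws from 1 normal population give about 1 such group in 20. The groups here mix array sets and sexes and share their animals across genes. The 8 can therefore not be set against that share, and the share over all probe sets is not given here. The low Sham animals were Sham 7 for SLC27A1 (6.83, the nearest at 7.18) and for ACAA2 (11.27, the nearest at 11.70), and Sham 3 for ACSL3 (6.5, the nearest at 6.76). Further low Sham animals were Sham 6 for CPT1A (7.60, the nearest at 8.27), Sham 4 for ECI2 (8.83, the nearest at 9.83) and Sham 8 for HSD17B4 (8.07, the nearest at 8.96). Among MI animals MI 1 was high for ACSL3 (7.30, the nearest at 6.85) and MI 5 low for CPT2 (5.41, the nearest at 5.97). Of these 8 animals and genes, 4 concern Sham arrays of set B.

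UCP2 was flagged because all 4 MI animals labelled female lay above the Sham female mean and all 4 labelled male below the Sham male mean. The share of all probe sets with such a pattern is not given here. MI 7 was counted as female, though its EIF1AY signal lay within the range of the males. Its UCP2 value (6.74) lay above the Sham male mean of 6.71 as well. The difference between the sexes, 0.99, did not pass (adjusted p = 0.794 by limma), and it was 0.59 with the array set as a block. UCP2 was higher in set B by 0.67, and by label set B held 2 MI females, 1 Sham female, 2 Sham males and 0 MI males. Its part in the difference between the sexes was not tested beyond the block.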

How the results depend on the processing

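Over 29 alternatives per gene (27 for PPARA), 13 of 1013 values passed, all of ETFA, CPT1A, SLC27A1 or PPARGC1A, and 79 changed sign, none of them passing. The number of members passing between MI and Sham, 0 by limma with all animals and sex in the fit, was 1 for the group without sex, quantile normalization, an offset of 32 or the set as a block (ETFA each time). It was 4 in set A alone, 2 without MI 7 and with the block, 4 at an unadjusted p under 0.05, and 0 to 2 when single animals were left out (1 without MI 7, 2 without Sham 7). All probe sets passing, 2527, became 654 of the 16000 brightest, 993 of those above background, 1 in set B, 1123 at an adjusted p under 0.01 and 5673 at an unadjusted p under 0.05, and 2045 to 2537 without single animals. The wider list, 3, gave 0 in set B, 5 without MI 7 and with the block, 1 at an adjusted p under 0.01, 9 at an unadjusted p under 0.05, and 2 to 4 without single animals. Members passing in males, 0, were 0 to 1 without single animals. In set B alone the step medians were 0.18 for beta oxidation and -0.06 for electron transfer.

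Signs changed in set A alone to -0.03 for FABP3, ACADS and HADHA, -0.02 for LPL and ACSL1, 0.05 for ACSL3 and UCP2, -0.06 for CRAT, -0.07 for ACADVL, -0.04 for DECR1 and 0.00 for ACAA1. In set B alone they changed to 0.02 for SLC27A1, -0.15 for SLC27A6 and SLC25A20, -0.52 for ACSL5, 0.34 for CPT1B, 0.08 for CPT2, -0.05 for ACADM, 0.06 for HADH and PPARA, 0.13 for ECI2, -0.06 for ETFB, 0.01 for OXCT1, 0.52 for PPARGC1A, 0.00 for UCP2 and -0.01 for UCP3. With the block SLC25A20 was -0.02 and UCP2 0.05; with the block and without MI 7 they were -0.02 and 0.06, and DECR1 was -0.03. With all probe sets averaged ACADVL was -0.01. Without single animals 47 values changed sign, none larger than 0.09. These ranged from -0.01 to 0.12 for FABP3, -0.01 to 0.11 for LPL, -0.04 to 0.06 for ACSL1, -0.04 to 0.08 for ACSL5, -0.13 to 0.04 for CPT1B, -0.11 to 0.03 for CPT2, -0.04 to 0.12 for SLC25A20, -0.09 to 0.09 for CRAT, -0.01 to 0.08 for ACADM, -0.04 to 0.03 for HADH, -0.03 to 0.11 for DECR1, 0.00 to 0.05 for ACAA1, -0.12 to 0.00 for OXCT1, -0.11 to 0.01 for PPARA and -0.09 to 0.04 for UCP2. The cause was not tested.

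Deviations of same-numbered animals correlated at -0.07 to 0.46, over 0.1 in 4 of 8 pairs, and 2 of 8 MI animals correlated best with their own number. The animals numbered 1 to 5 were all in set A and those numbered 7 and 8 all in set B. These values therefore cannot decide whether the numbers pair the animals. With the number as a replicate block limma passed 0 of 35 members, and 3 had an unadjusted p under 0.05, while 11% of all probe sets passed and 26.7% had such a p.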
